A study of Mus musculus with 18 samples.

Results

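In Satb1 KO thymocytes, 500 cohesin sites of WT thymocytes that overlap a CTCF peak had no cohesin peak in either KO library. CTCF was called in WT at 390 of them, and a KO list still had a CTCF peak at 356 of those 390. All 356 were in the list of KO replicate 1, and 121 were also in that of KO replicate 2. The share with no KO CTCF peak was 8.72%. It was 0.923% of WT CTCF sites with cohesin in both WT libraries and 1 KO library, and 0.136% of those with cohesin in every library. Of all CTCF regions called in WT, with or without cohesin, it was 19.1%. The WT CTCF fold had a median of 6.15 at lost sites and 11.3 at sites with cohesin in every library. These shares were not compared at like CTCF strength. A region is called CTCF-bound here if any of the 3 CTCF lists, KO or WT, has a peak on it. The sites were found by merging the peaks of the 4 SMC1A lists on chromosomes 1 to 19 wherever they overlapped by at least 1 bp, which gave 34329 regions. A region was taken as lost if both WT lists held it, neither KO list held it and at least 1 of the 3 CTCF lists had a peak on it. Both WT lists held 14330 regions at CTCF, so the 500 lost ones are 3.49% of those, the share that the choice itself fixed. With 94 further regions that overlapped no CTCF peak and are not described here, 594 of 14538 regions of both WT lists (4.09%) were missing from both KO lists. The sites were thus selected on the SMC1A peaks called in these same lists and chosen by their overlap with CTCF peaks, so their SMC1A values below are a description with no test.

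The Satb1 KO samples came from sorted DP thymocytes with a tamoxifen-induced KO of Satb1, and the WT samples from the same cell type; both genotypes were given tamoxifen. DP thymocytes, which carry both CD4 and CD8, are the stage at which the alpha chain of the T cell receptor is rearranged and selection begins. The labels do not name the Cre driver, the age of the mice or whether replicates were separate animals, and a peak list holds no expression of marker genes with which to check the cell type. CUT&RUN, in which an antibody tethers a nuclease to a chromatin protein and the released DNA is sequenced, was done for SMC1A (2 KO and 2 WT lists, 1 of each genotype in each batch) and for CTCF (2 KO lists and 1 WT list). The lists held 27459 and 20172 SMC1A peaks in KO and 19466 and 20152 in WT, and 54222 and 22351 CTCF peaks in KO and 38222 in WT. The CTCF lists of WT and KO replicate 1 were of batch 1, and that of KO replicate 2 was of batch 2. A second WT CTCF sample, of batch 2, had no peak list that was used. KO replicate 2 is thus set beside the WT CTCF list across batches, where genotype and batch cannot be told apart. Read depth is unknown. The low end of the background pile-up implied by the caller's statistics, a stand-in for depth, was 0.633 and 0.384 reads in the KO SMC1A libraries and 0.533 and 0.465 in the WT ones, so the highest and the lowest value were both in KO. For CTCF it was 1.82 and 3.28 reads in KO replicates 1 and 2 and 1.02 in WT, and KO replicate 2, with the highest background, had the fewest CTCF peaks.

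Cohesin is a ring of SMC1A, SMC3, RAD21 and a STAG subunit that extrudes chromatin into loops. CTCF, a zinc finger protein, halts it when the ring meets the motif in the right orientation, so that cohesin peaks in most cells sit on CTCF sites and mark loop anchors. In DP thymocytes such loops are known to bring gene segments of the antigen receptor loci together and to frame the domains of lineage genes. SATB1 is an abundant DNA-binding organiser of thymocyte chromatin, needed for normal T cell development.

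The sequences of 5 promoter windows that overlap a lost site are shown (RefSeq, GRCm38.p6, the assembly that mm10 represents), each from 250 bases before to 50 bases after a start. They are the site with the strongest WT peaks (Jup), the site among the named promoters whose window holds a longer CTCF core (Mical3), a pair of promoters of genes with a role in T cells (Gimap7 and Fyb), and a listed gene whose start lies 54 bp from the summit (Aire). Capitals mark a CTCF core, read as CCA, any 2 bases, AG, any 2 bases and GGC, and the CCCTC pentamer after which CTCF was named, each searched on both strands.
Jup, chr11:100397741-100398040, minus strand: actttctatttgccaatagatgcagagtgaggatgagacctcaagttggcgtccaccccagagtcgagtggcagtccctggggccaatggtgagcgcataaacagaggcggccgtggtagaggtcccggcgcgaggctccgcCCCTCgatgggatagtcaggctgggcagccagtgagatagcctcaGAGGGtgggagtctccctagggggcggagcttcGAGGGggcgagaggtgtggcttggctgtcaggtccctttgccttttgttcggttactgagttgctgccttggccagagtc
Mical3, chr6:121130973-121131272, minus strand: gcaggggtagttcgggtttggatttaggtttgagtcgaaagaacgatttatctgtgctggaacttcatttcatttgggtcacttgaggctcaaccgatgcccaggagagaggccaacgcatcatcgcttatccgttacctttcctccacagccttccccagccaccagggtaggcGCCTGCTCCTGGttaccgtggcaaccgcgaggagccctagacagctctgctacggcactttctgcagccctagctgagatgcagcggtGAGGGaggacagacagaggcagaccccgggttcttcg
Gimap7, chr6:48718371-48718670, plus strand: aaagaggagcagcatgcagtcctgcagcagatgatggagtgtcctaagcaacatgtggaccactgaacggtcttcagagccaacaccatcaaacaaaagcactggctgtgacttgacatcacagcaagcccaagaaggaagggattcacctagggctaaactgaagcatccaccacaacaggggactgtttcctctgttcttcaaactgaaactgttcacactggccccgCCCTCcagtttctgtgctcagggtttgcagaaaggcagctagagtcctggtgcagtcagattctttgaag
Fyb, chr15:6579597-6579896, plus strand: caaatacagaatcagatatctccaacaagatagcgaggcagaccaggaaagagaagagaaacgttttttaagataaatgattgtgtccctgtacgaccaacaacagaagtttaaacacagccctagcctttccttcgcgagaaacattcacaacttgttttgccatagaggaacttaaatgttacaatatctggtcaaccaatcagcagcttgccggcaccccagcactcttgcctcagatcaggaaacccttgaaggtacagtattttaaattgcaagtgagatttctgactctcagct
Aire, chr10:78043561-78043860, minus strand: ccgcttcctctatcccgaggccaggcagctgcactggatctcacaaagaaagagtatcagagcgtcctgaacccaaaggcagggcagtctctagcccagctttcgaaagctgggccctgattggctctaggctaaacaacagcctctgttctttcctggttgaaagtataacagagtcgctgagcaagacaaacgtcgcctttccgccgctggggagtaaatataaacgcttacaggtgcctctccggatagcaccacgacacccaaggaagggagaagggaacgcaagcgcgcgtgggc
The Mical3 window holds the core 1 time, from base 176, on the reverse strand, and 1 pentamer that does not overlap it. The Jup window holds 3 pentamers and the Gimap7 window 1, while the Fyb and Aire windows hold neither motif. Of all 32851 promoter windows, 2.43% hold the core and 66.0% the pentamer. Of the 107 windows that overlap a lost region, 3 (2.80%) hold the core and 73 (68.2%) the pentamer, and of the 6621 windows at regions of all 4 SMC1A lists, 3.75% and 75.9% do. The pentamer was added after the data had been seen.

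Of the 390 lost sites with a CTCF peak in WT, 356 also had one in KO replicate 1 and 121 in KO replicate 2. KO replicate 1 had a CTCF peak on 459 of the 500 (91.8%, 95% Wilson interval 89.1 to 93.9), KO replicate 2 on 139 (27.8%, 24.1 to 31.9) and the WT list on 390 (78.0%, 74.2 to 81.4). Since a CTCF peak in any list was part of the choice, the 92, 11 and 7 sites with CTCF in KO lists alone are in these shares by construction. The 12029 CTCF-bound regions of all 4 SMC1A lists were held more often by each list, by 99.2% in KO replicate 1, 84.0% in KO replicate 2 and 97.9% in WT. The gap to those regions was -7.44 percentage points in KO replicate 1 and -56.2 in KO replicate 2, against -19.9 in WT. The KO lists lay on either side of the WT list, with a difference of -11.9 points between genotypes. The exact two-sided permutation test over the 3 lists gave p = 1, but with 1 WT list it cannot go below 1 in 3 and the same lists helped choose the sites, so nothing is read from it.

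**Figure D1:**
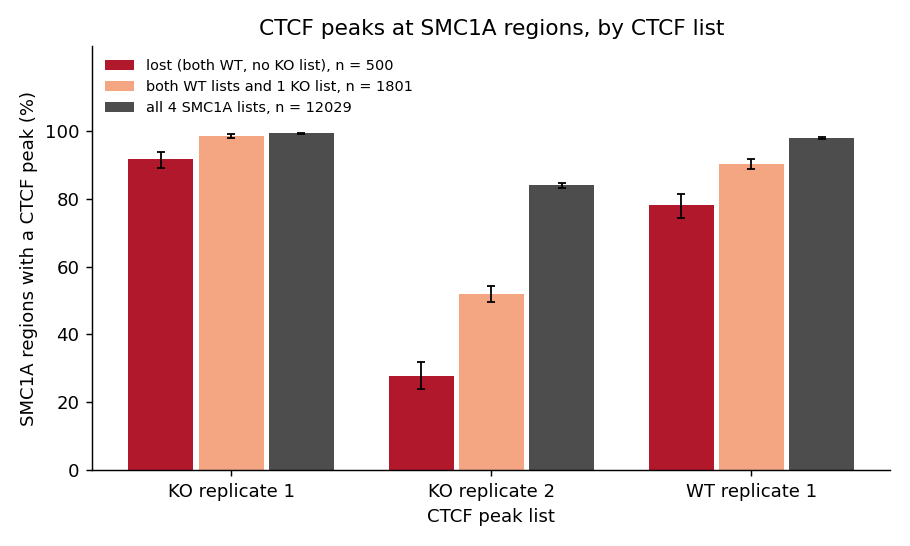
Percent of SMC1A regions with a CTCF peak in KO replicate 1, KO replicate 2 and WT, for the 500 lost regions, the 1801 regions of both WT lists and 1 KO list, and the 12029 regions of all 4 lists; bars are shares of regions and error bars 95% Wilson intervals for counting error only. In every CTCF list the lost regions are held least often, at 91.8%, 27.8% and 78.0%.

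The lists combined in 6 patterns. Both KO replicate 1 and WT, without KO replicate 2, held 235 lost regions (47.0%), and all 3 lists held 121 (24.2%). KO replicate 1 alone held 92, KO replicate 1 with KO replicate 2 held 11, KO replicate 2 alone held 7, and the WT list alone held 34. Among regions of all 4 SMC1A lists the order was different, with 82.7% in all 3 CTCF lists and 14.7% in KO replicate 1 and WT. The strongest lost regions of each pattern were near Ephx1 (all 3 lists), in Arhgap21 (KO replicate 1 and WT), near Jup (WT alone), in Pde3b (KO replicate 1 alone), in Susd6 (both KO lists) and, for KO replicate 2 alone, a site on chromosome 4 at 24098123 to 24098325 that is over 100 kb from any protein-coding gene.

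At 34 sites cohesin and CTCF were both missing from the KO lists. They are 8.72% of the 390 lost sites in the WT CTCF list (Wilson interval 6.31 to 11.9). Of all 35499 CTCF regions called in WT, 19.1% were missing from both KO CTCF lists, and of the 13789 SMC1A regions of both WT lists that overlap a WT CTCF peak, 0.471% were. The first set counts merged CTCF regions, with or without cohesin, and the second merged SMC1A regions, the lost ones included. Of the 34, 19 lay in a gene body and 2 of the 33 that could be placed by transcription starts lay within 1 kb of one. The 5 with the highest rank were near Jup, which encodes the junction protein plakoglobin, near Ptprs, a receptor tyrosine phosphatase, in Dap, in Gse1 and in Clu, which encodes the chaperone clusterin. Their CTCF folds in the WT list were 10.3, 11.3, 5.07, 7.19 and 6.10. Others, named after their values were seen, were in Vav2, in Dusp16 and near Lfng, which encodes the Fringe glycosyltransferase of Notch.

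Both KO replicate 1 and WT had a CTCF peak at 356 lost sites. The CTCF fold enrichment over background was higher in KO replicate 1 at 229 of 356 lost sites (64.3%), with a median ratio of 1.19 to the WT fold. At regions of all 4 SMC1A lists that median was 1.65, so a ratio above 1 is the rule for this library and the median of the lost sites lay below its usual ratio. KO replicate 2 gave the opposite picture, with a higher fold than WT at 9 of 121 lost sites and a median ratio of 0.532, against 0.423 at regions of all 4 lists. Folds of libraries with different backgrounds are not on 1 scale, so the ratios serve only to set the lost sites beside the other sites. The ratio of KO replicate 1 was 2 or more at 41 lost sites and 0.5 or less at 10.

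The ends of that range are named here as the 5 lowest and 5 highest, after their values were seen. Each fold is that of the strongest CTCF peak of its list on the merged region. Whether the summits of KO replicate 1 and WT coincide was not checked, so a ratio may compare different peaks. The site near Dgat2, an enzyme of triglyceride synthesis, had a CTCF fold of 78.9 in KO replicate 1 and 4.27 in WT. The other 4 highest were at Acss1 (31.3 in KO replicate 1 and 4.08 in WT), Zfc3h1 (45.2 in KO replicate 1 and 6.33 in WT), Twf2 (27.3 in KO replicate 1 and 3.99 in WT) and Cytip (24.3 in KO replicate 1 and 3.66 in WT). Cytip encodes a regulator of lymphocyte adhesion. The lowest were near Hsdl1 (3.74 in KO replicate 1 and 11.3 in WT), at Hykk (3.76 in KO replicate 1 and 10.2 in WT), at Rapgef3 (4.35 in KO replicate 1 and 10.5 in WT), at Arhgap21 (6.14 in KO replicate 1 and 14.7 in WT) and at Klf9 (2.96 in KO replicate 1 and 6.55 in WT).

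**Figure D2:**
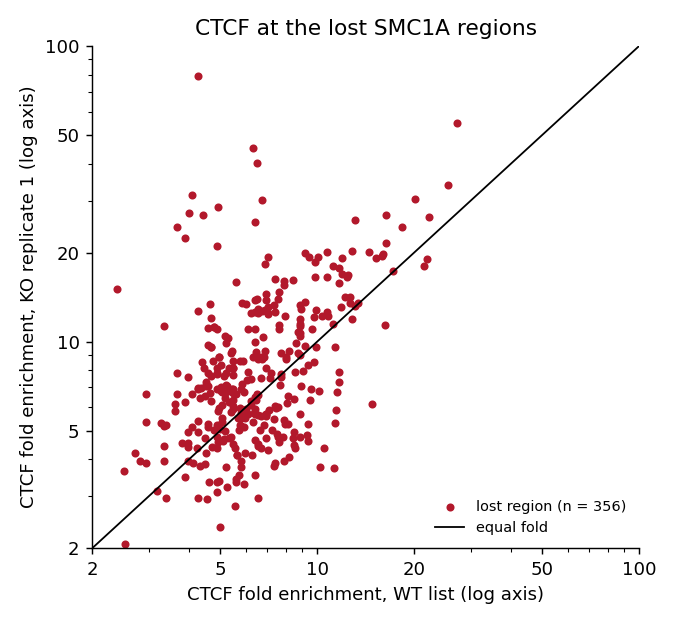
CTCF fold enrichment in KO replicate 1 (vertical) against WT (horizontal), both on log axes, at the 356 lost SMC1A regions that have a CTCF peak in both lists; each point is a region and the line marks equal fold. Points lie on both sides of the line, with 229 above it.

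The lost sites were weak cohesin sites in WT. Their SMC1A fold had a median of 5.48 in WT replicate 1 (range 2.70 to 11.7) and 5.29 in WT replicate 2 (2.92 to 14.1). At regions of all 4 lists the WT medians were 8.78 and 8.63. Regions in 1 KO list had WT medians of 5.87 and 5.89, so low WT folds are not particular to the lost sites. The summit pile-up solved from the caller's statistics had a median of 9 reads in WT replicate 1 and 8.5 in WT replicate 2, so most lost calls rest on few reads. The merged regions had a median width of 392 bp, against 473 bp at regions in 1 KO list and 694 bp at regions of all 4 lists. A merged region spans the peaks of every SMC1A list on it, and lost regions have no KO peak to add. Their smaller width is thus partly built in and is not read as a trait. Summits lay close to CTCF, at a median of 51 bp from the nearest CTCF summit, against 23 bp at regions of all 4 lists. The nearest summit was taken over the CTCF lists with a peak. All 3 lists had one at 24.2% of lost sites and 82.7% of regions of all 4 lists, so the difference is partly built in.

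Ranked by the lower of the 2 WT −log10 q values, the share of CTCF-bound WT regions that were lost was 12.9% under 3 (141 of 1097), 9.05% from 3 to 5, 2.56% from 5 to 8, 0.608% from 8 to 12 and 0.184% from 12 to 20. Above 20 it was 0 of 2535 regions, with an upper Wilson bound of 0.151%. By CTCF fold in the WT list the share was 9.91% under 5, 5.65% from 5 to 8, 1.82% from 8 to 12, 0.515% from 12 to 20 and 0.351% at 20 or more. The first split uses values that chose the sites. Among the lost regions 101 had a lower −log10 q of 5 or more, and 9 reached 10.

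**Figure D3:**
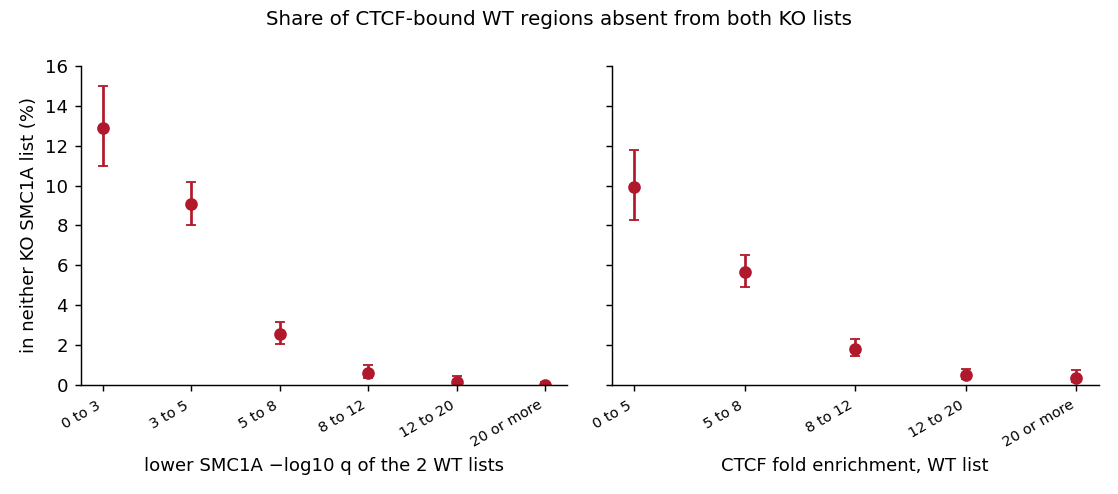
Percent of CTCF-bound regions of both WT SMC1A lists that were in neither KO SMC1A list, by the lower WT SMC1A −log10 q (left) and by the CTCF fold of the WT list (right); points are shares of regions and error bars 95% Wilson intervals. The share goes from 12.9% at the weakest SMC1A sites to 0 at the strongest, and from 9.91% to 0.351% with CTCF fold.

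At the edge of the choice, the members with the lowest WT values were a site near Chrna9 (−log10 q of 1.40 and 2.60 in WT replicates 1 and 2), a site in Mad1l1 (1.42 and 2.54) and a site on chromosome 16 at 50841861 to 50842060 (4.21 and 1.46). Just outside were regions of both WT lists whose only KO peak was weak. They were at Cfap43 (KO replicate 2, −log10 q of 1.38, against 2.53 and 7.30 in WT), Nme7 (KO replicate 1, 1.47, against 3.63 and 5.04) and Lbp (KO replicate 1, 1.47, against 8.10 and 3.03). In all, 1801 CTCF-bound regions of both WT lists were in a single KO list, 1567 of them in KO replicate 1 and 234 in KO replicate 2. A KO SMC1A peak that did not overlap lay within 1 kb of 112 of the 500 lost regions (22.4%) and within 5 kb of 239.

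Some differences between lost and shared sites held among sites of like WT strength. With a lower −log10 q under 5, CTCF was called at 92.5% of the 399 lost regions in KO replicate 1, 28.8% in KO replicate 2 and 76.9% in WT. In the 2465 regions of all 4 lists in that range it was 99.8%, 68.4% and 94.9%. The median CTCF fold at the peaks called there was 6.63 in KO replicate 1 and 5.97 in WT at lost sites, against 12.9 in KO replicate 1 and 7.93 in WT at sites of all 4 lists. The median ratio of KO replicate 1 to WT was 1.20 at lost sites and 1.58 at the others. These ranges were chosen after the data had been seen and match strength only roughly, so these are values set side by side, with no test.

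The strongest lost sites lay near Jup on chromosome 11 (100397352 to 100398122), near Ephx1 on chromosome 1 (180987682 to 180988248), in Arhgap21 on chromosome 2 (20899804 to 20900098) and in Unc5cl on chromosome 17 (48462041 to 48462544). None overlapped an SMC1A peak in KO, but a KO peak lay within 1 kb of the Arhgap21 site. Jup had an SMC1A fold of 11.7 and 14.1 in WT replicates 1 and 2, and no CTCF peak in KO. Ephx1, an epoxide hydrolase gene, had 10.0 and 9.81, with a CTCF fold of 19.2 and 5.65 in the KO lists and 15.2 in WT. Arhgap21, which encodes a GTPase activator, had 10.3 and 8.13 and Unc5cl 10.4 and 10.2, and both kept a CTCF peak in KO replicate 1. The other 8 of the 12 highest ranked were in or near Hsdl1, Rtn4rl1, Mgat4c, Tmem184b, Tex14, Heg1 and Pde3b and at a site on chromosome 9 (61669737 to 61670192), with WT folds of 7.31 to 12.1. Of all 12, 11 had a CTCF peak in KO replicate 1 and 1 in KO replicate 2.

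**Figure D4:**
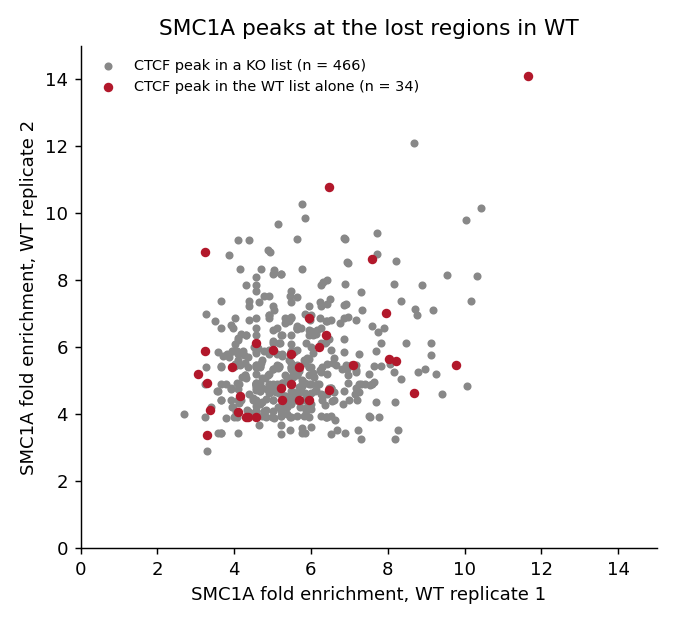
SMC1A fold enrichment in WT replicate 2 (vertical) against WT replicate 1 (horizontal) at the 500 lost regions; red points are the 34 regions whose CTCF peak is in the WT list alone and grey points the 466 with a CTCF peak in a KO list. Folds run from 2.70 to 11.7 and from 2.92 to 14.1, and the point with the highest fold on both axes is the red Jup site.

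Lost sites lay in gene bodies more often and at promoters less often than regions of all 4 lists. Within each range of WT strength given below, both gaps were smaller beside regions in 1 KO list than beside regions of all 4 lists. In the range of 5 to 12, the gene-body gap was not smaller than the one without ranges. The summit was in the body of a protein-coding gene at 300 of 500 lost sites (60.0%, Wilson interval 55.6 to 64.2), against 50.9% of regions of all 4 lists. Of the 485 lost sites on chromosomes with a table of starts (all but chromosome 18), 112 (23.1%, 19.6 to 27.0) lay within 1 kb of a transcription start of a protein-coding gene, against 40.3% of regions of all 4 lists. Among sites with a lower −log10 q under 5, the same shares were 58.1% in gene bodies and 23.4% at starts for lost regions, against 57.7% and 27.7% for regions of 1 KO list and 55.0% and 28.1% for regions of all 4 lists. From 5 to 12 they were 68.0% and 21.9% for lost regions, against 57.3% and 32.0% for regions of 1 KO list and 52.4% and 35.4% for regions of all 4 lists. By CTCF pattern the share at starts was 31.3% for sites held by KO replicate 1 and WT and 6.06% for those held by WT alone. Whether a site is exonic or intronic was not determined here.

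The 10 strongest sites within 1 kb of a protein-coding start were at Jup, Tmem184b, Hykk, Gimap7, Macrod2, Gm40353, which shares its site with the start of Pds5b, Fyb, Mical3, Zfc3h1 and Lingo1. Gimap7, a GTPase gene of the Gimap cluster that is active in lymphocytes, had an SMC1A fold of 6.90 and 7.90 in the WT lists. Its CTCF fold was 6.93 and 3.86 in the KO lists and 4.27 in WT. Fyb, which encodes the T cell adaptor ADAP, had an SMC1A fold of 7.74 and 6.45 in WT and a CTCF fold of 8.59 and 4.24 in the KO lists and 5.88 in WT. Both promoters, shown above, thus had CTCF peaks in all 3 lists and SMC1A peaks in WT alone, although a KO SMC1A peak lay within 1 kb of the Fyb site. Mical3, with the core motif in its window, had an SMC1A fold of 6.42 and 8.01 in WT and a CTCF fold of 11.2 in KO replicate 1 and 4.78 in WT. A KO SMC1A peak lay within 1 kb of the Mical3 and Zfc3h1 sites.

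Of the 188 genes on 11 lists, 16 had a lost site within 20 kb, 1 each. These lists cover 429 CTCF-bound WT regions, of which 16 (3.73%) were lost, close to the 3.49% of all such regions, and the counts per list are too few to rank the lists. With peaks of −log10 q 5 or more, only the Pds5b site of these 16 was still lost, whereas all 12 of the highest ranked sites were. T-lineage transcription factors had 5 lost of 128 regions. Satb1, the targeted gene, had 1 lost of 8, in its body on chromosome 17 at 51767849 to 51768080, with an SMC1A fold of 6.76 and 6.72 in WT and a CTCF peak in KO replicate 1 alone (fold 3.22). A peak list does not show the deletion. Lef1, an HMG-box factor of early T cells, had its lost site at 131214519 to 131215246 on chromosome 3, with an SMC1A fold of 5.48 and 5.40 in WT. Foxp1, a forkhead factor of T cell quiescence, and Zbtb7b, which encodes the CD4-lineage factor ThPOK, had CTCF at the lost site in KO replicate 1 alone, with a CTCF fold of 2.35 and 6.11. Egr1, a gene induced by T cell receptor signals, had its lost site on chromosome 18 at 34855241 to 34855685, with CTCF in KO replicate 1 (8.33) and WT (5.01) and a KO SMC1A peak within 1 kb.

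T cell receptor and coreceptor genes had 2 lost of 104 regions. The site near Cd8a, which encodes the CD8 alpha chain, lay on chromosome 6 at 71360606 to 71361105 and had an SMC1A fold of 10.1 in WT replicate 1 and 4.84 in WT replicate 2. Its CTCF fold was 3.89 in KO replicate 1 and 4.12 in WT. The site at Cd3e, a chain of the CD3 complex, lay 948 bp from its start, with an SMC1A fold of 3.86 and 5.72 in WT and a CTCF fold of 12.7 in KO replicate 1 and 4.26 in WT. Other sites of both genes remained: 4 of the 7 regions at Cd8a and 3 of the 6 at Cd3e were in all 4 lists. A KO SMC1A peak lay within 1 kb of the Cd3e site.

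Genes of cohesin, CTCF and nuclear architecture had 3 lost of 42 regions. The site near the start of Ctcf itself, at 105634997 to 105635269 on chromosome 8, had an SMC1A fold of 4.83 and 4.14 in WT and a CTCF fold of 28.6 in KO replicate 1 and 4.92 in WT. Pds5b, a regulator of cohesin release, had its site 730 bp from the start, with 6.51 and 7.44 in WT. Esco1, an acetyltransferase of SMC3, had its site beside Snrpd1 on chromosome 18, with an SMC1A fold of 5.21 and 4.61 in WT and a CTCF fold of 26.7 and 9.23 in the KO lists and 16.4 in WT. A KO SMC1A peak lay within 1 kb of the Ctcf and Pds5b sites.

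The other lists had few lost sites. Clustered CTCF-rich genes had 2 of 17, at Igf2, an imprinted growth factor gene, and in the gamma protocadherin cluster at Pcdhga8, inside the annotated span of Pcdhga1. The Igf2 site, at 142672085 to 142672392 on chromosome 7, had an SMC1A fold of 5.64 and 6.63 in WT and a CTCF fold of 12.2 and 3.86 in the KO lists and 7.94 in WT. Regulatory T cell genes had 1 of 17 (Lrrc32, with a KO SMC1A peak within 1 kb), survival and death genes 1 of 37 (near Bid, in Mical3), Notch and pre-T pathway genes 1 of 19 (Notch3) and thymic epithelial and erythroid markers 1 of 19. That last site was at Aire, the regulator of self-antigens in thymic epithelium, 54 bp from its start. By the gene rule used for all sites, the site is assigned to Dnmt3l. Its SMC1A fold was 8.15 and 5.27 in WT, and its CTCF fold 12.9 and 4.72 in the KO lists and 8.88 in WT. A KO SMC1A peak lay within 1 kb of the Aire site. Cytokine and effector genes had 0 of 7, housekeeping genes 0 of 23, and B cell and myeloid markers 0 of 16.

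Some genes with a role in T cells outside the lists also held a lost site, and these are named after their values were seen. Among them were Stat4, a signal transducer of IL-12, Il16, Rela and Relb, subunits of NF-κB, Prkch, Dnmt3a, a DNA methyltransferase, and Smad3. No count is drawn from this choice.

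Most lost sites were single, but no like share of other regions is given here, so this is not read as a trait of lost sites. With a limit of 100 kb between neighbours, 76 of the 500 (15.2%) fell into 34 runs. Of these runs 28 had 2 sites, 5 had 3 and 1 had 5. The share was larger in larger sets, such as 26.4% of the 992 sites lost with SMC1A lists of equal length. The run with the most lost sites covered 124 kb on chromosome 9, from 110871192 to 110995090, across Tmie, Als2cl, Fam240a, Tdgf1, Lrrc2 and Rtp3. Of the 7 CTCF-bound WT regions in it, 5 were lost, 2 were in 1 KO list and 0 were in both. The SMC1A folds of the 5 sites in WT ran from 3.23 to 6.37. Tdgf1 encodes a coreceptor for Nodal, known from embryos, and Tmie a protein of the hair cells of the ear. Of the 5 sites 4 kept a CTCF peak in KO replicate 1, and 1 of those also in KO replicate 2.

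The other 5 runs of more than 2 had 3 lost sites each, given by their summed lower −log10 q. In Ltbp4, which encodes a binding protein of latent TGF-β, they were 3 of the 4 WT regions within 17.2 kb on chromosome 7. Around Gpat3, an acyltransferase gene on chromosome 5, they were 3 of 4 within 73.5 kb. In Myo1d, a myosin gene on chromosome 11, they were 3 of 5 within 24.1 kb, and across Slc2a3, which encodes the glucose transporter GLUT3, and Foxj2 they were 3 of 5 within 78.8 kb. The last, with the widest span and named after its values were seen, had 3 of 4 within 161 kb on chromosome 12, from Colec11 to Trappc12. Each of these runs kept 1 or 2 regions in all 4 lists and held 0 gained regions, those in both KO SMC1A lists and neither WT list. Of the CTCF-bound regions of both KO lists, 12.8% were gained. Gse1 also held 3 lost sites in its body, of 11 WT regions, but farther apart. In the bodies of Als2cl, Arvcf, Nfic and Pgs1 both WT regions were lost.

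Lost sites stood among lasting ones. The nearest other CTCF-bound region of all 4 lists was at a median of 18.9 kb, against 20.0 kb for those regions among themselves, and it lay within 10 kb for 39.6% of lost sites and 33.0% of the others. A gained SMC1A region, with or without a CTCF peak, lay within 100 kb of 27.2% of lost sites and 35.3% of regions of all 4 lists. By chromosome the share of CTCF-bound WT regions that were lost ran from 2.13% on chromosome 16 (10 of 469) to 4.74% on chromosome 5 (43 of 908), with Wilson intervals of 1.16 to 3.88 and 3.53 to 6.32. The interval of every chromosome but chromosome 5 covered the 3.49% over all. With 19 intervals compared, nothing is read from that 1 miss.

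**Figure D5:**
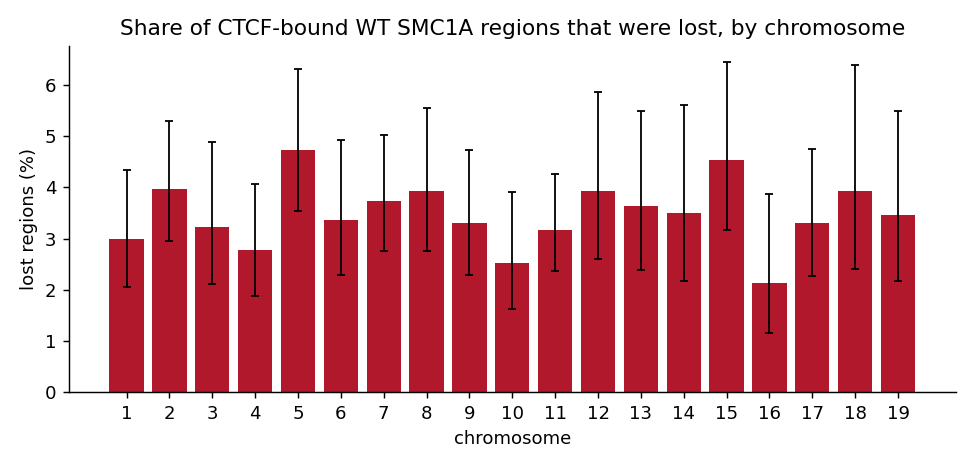
Percent of CTCF-bound regions of both WT SMC1A lists that were lost, by chromosome; bars are shares of regions and error bars 95% Wilson intervals for counting error only. Shares run from 2.13% on chromosome 16 to 4.74% on chromosome 5.

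How many sites count as lost depends on each list. Dropping a list loosens the choice, and the count was then 2110 without KO replicate 1, 737 without KO replicate 2, 2001 without WT replicate 1 and 1717 without WT replicate 2. Within batch 1, 2190 of 18271 CTCF-bound regions of the WT list (12.0%) were missing from the KO list, and within batch 2 it was 4859 of 18730 (25.9%). With the 19466 strongest peaks of each SMC1A list, 992 were lost, and these overlapped 470 of the 500. With peaks of −log10 q 5 or more, 404 were lost, but they overlapped only 93 of the 500, so the sites at this threshold are mostly others.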

How the data were processed

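The samples are CUT&RUN libraries of sorted DP thymocytes; 7 of the 18 samples had a peak list that was used, and the others were not analysed here. The authors called peaks per library, not on pooled samples; the tools, per the submitters' processing notes, include MACS2, Bowtie2, deepTools, SAMtools, Trimmomatic 1.24 and R 4.12, on mm10. Neither settings nor a peak-calling control is stated in the labels. Deposited for each peak are its summit offset, its −log10 p and −log10 q and its fold (ratio) over background, all as the authors' caller gave them. The highest q was 0.0498. The lists hold no read counts, so no count model was fitted.

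Groups follow the titles, and replicate numbers match the batch in the labels. A merged region takes the strongest peak of each list on it. A site takes the shortest protein-coding gene body over its summit, the summit of the stronger WT peak, or else the nearest boundary within 100 kb (RefSeq table of GRCm38.p6, where 189 of 189 listed names matched, 1 as an older symbol of another). Transcription starts came from 32851 promoter windows. Pile-up was solved from the fold and −log10 p under a Poisson model, met within 0.001 in 1976 or more of 2000 peaks tried per list. Named sites are the 12 highest ranked, all within 20 kb of listed genes, the 5 runs with the most sites (ties by summed lower −log10 q), the 10 strongest within 1 kb of a protein-coding start and the strongest of each CTCF pattern; sites named otherwise are said to be. Sites and lists were chosen with earlier results of these data known. Intervals cover counting error only. The 1 test was an exact permutation test. The overlap step was tested on simulated data. Alternatives were −log10 q of 5 or more, SMC1A lists of equal length, summits within 200 bp, overlap of at least 0.5 of the shorter, no KO peak within 1 kb, other CTCF sets, other distances, each list left out and each batch alone. The software was matplotlib 3.10.9, scipy 1.17.1, pandas 2.3.3 and numpy 2.4.6 under Python 3.11.15.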

Additional observations from a re-analysis of the deposited data

How the results depend on the processing

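No paired analysis was possible because the results come from overlaps of peak lists and not from a fitted test; values within each batch are given in its place. The lists hold peaks, not reads, so a site just under the caller's threshold in KO counts as lost, and most WT peaks at lost sites rest on few reads. Under peaks of −log10 q 5 or more, the lost sites were 3.91% of CTCF-bound WT regions, and CTCF was called at 95.3% in KO replicate 1 and 82.4% in WT. With SMC1A lists of equal length, 992 sites were lost (7.02%), with CTCF at 95.1% and 35.3% in the KO lists and 83.4% in WT, and 262 had another within 100 kb. With summits within 200 bp, 823 were lost (6.21%), with 95.3% and 42.3% in the KO lists and 84.4% in WT, and 203 near another. With no KO peak within 1 kb, 388 were lost (2.71%), 47 near another. At sites of the WT CTCF list 2.83% were lost, and at sites of all 3 CTCF lists 121 (1.10%), 6 near another. With each list left out in turn, the count ran from 408 to 2110, the percent from 2.92 to 14.6, and sites near another from 63 to 906. The CTCF shares then ran from 89.9% to 96.9% in KO replicate 1, from 23.0% to 45.4% in KO replicate 2 and from 65.8% to 87.3% in WT. Within batch 1, 2190 were lost (12.0%), with CTCF at 72.3% in WT, and 1011 near another. Within batch 2, 4859 were lost (25.9%), with 95.8% and 38.4% in the KO lists, and 3049 near another. With limits of 50 kb and 500 kb, 46 and 213 had another near, and listed genes within 5 kb and 100 kb had 10 and 33 lost sites. The cause of these shifts was not tested, beyond that dropping a list or adding a condition loosens or tightens the choice. The difference between genotypes in CTCF shares was -12.5 points under the first 2 settings and -10.4 against all WT regions. It averages KO lists of different batches, which lay on either side of the WT list in the main choice. Nothing about genotype is read from it. Overlap of at least 0.5 kept 489 of the 500. At −log10 q 5 or more the 12 highest ranked sites were all still lost, which their ranking by WT −log10 q largely fixed in advance. Of the 54 named sites, 24 were still lost at that threshold, including 1 of the 16 at listed genes. With no KO peak within 1 kb, 42 of the 54 were, 10 of those 16 included.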
